A study of Mus musculus with 10 samples.

Results

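The genes of TAM receptors and phosphatidylserine recognition were described in microglia, the resident macrophages of the brain, and in whole-tissue samples of brain. The 9 genes were taken by symbol from the deposited gene count table, in which each symbol stood in 1 row: the receptor kinase genes Mertk, Axl and Tyro3, the bridging ligand genes Gas6, Pros1 and Mfge8, and the receptor genes Havcr2, Timd4 and Megf10. They are 9 of 56748 genes in the table, and all 9 passed the filter on low counts. The microglia group held 5 libraries of cells sorted by CD11b (400000 cells a sample), a surface marker of myeloid cells, and the bulk brain group 5 libraries of hemi brains with all their cells, microglia included. All mice were young C57BL/6 males, the labels name no treatment or genetic change, and all 10 libraries carry the same batch label. Nothing in the labels ties each sample to an animal of its own. The p-values therefore reflect sample-to-sample spread, possibly only technical.

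Dying cells and stressed synapses expose phosphatidylserine, a lipid normally kept on the inner face of the plasma membrane, and phagocytes read it as a signal to engulf. TAM receptors (Tyro3, Axl and Mertk) do so indirectly: the vitamin K-dependent proteins Gas6 and protein S (Pros1) bind the lipid with one end and the receptor with the other, whereas Mfge8 links it to integrins. Members of the TIM family bind the lipid directly. In the brain, microglia and astrocytes both engulf, and TAM signalling also restrains inflammatory responses of macrophages.

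Total counts were 25087489 to 28514509 per microglia library and 25845049 to 34709215 per bulk brain library. A count of 0 therefore allows up to 3 counts, or 0.116 to 0.125 CPM (counts per 1000000 counts of a library, scaled for its composition) in a microglia library and 0.0821 to 0.109 CPM in a bulk brain library. These limits cover counting error only. All 10 microglia markers examined were higher in the sorted cells, with a median log2 difference of 7.16. Markers of border-associated macrophages, which also carry CD11b, summed to 445 to 578 CPM in microglia and 9.53 to 11.98 CPM in bulk brain, and all 10 were higher in microglia. Other cells with CD11b were marked less: 5 monocyte markers summed to 24.1 to 35.3 CPM in microglia and 0.173 to 0.691 CPM in bulk brain, and 5 neutrophil markers to 4.81 to 13.3 CPM in microglia and 0.248 to 0.548 CPM in bulk brain. Of the 10 neuron and 10 astrocyte markers all were lower in microglia, at a median of 0.108% and 0.414% of their bulk brain level. The 10 oligodendrocyte markers were lower too, at a median of 0.492% and at most 13.4%. Markers of vessel cells kept more. The 6 mural cell markers stood at a median of 6.52% and at most 20.8%. Of the 8 endothelial markers, 7 were lower and Pecam1 was higher in microglia, with a median of 16.2% over the 8. Bulk brain replicates 1 and 2 stood apart from replicates 3 to 5, with chi-square values of 106 to 278 per degree of freedom between a library of each kind, against 5.45 to 7.76 among replicates 3 to 5. Replicates 1 and 2 also differed from each other, with a value of 46.6. Values of a called difference that replicates 1 and 2 moved by over 1.5 times are also given for replicates 3 to 5 alone.

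Of 18969 genes tested with edgeR's quasi-likelihood test, 81.0% had a Benjamini-Hochberg adjusted p below 0.05, and 37.2% were higher in microglia while 43.9% were lower. Among the 9 genes, 6 were higher (Mertk, Axl, Gas6, Pros1, Havcr2 and Timd4) and 3 lower (Tyro3, Mfge8 and Megf10). The CPM of the 5 microglia and the 5 bulk brain libraries did not overlap for any of the 9, where 74.7% of all genes tested had no overlap (34.2% higher and 40.5% lower in microglia). Since most genes tested were called, these counts say little about the members. The size of the difference varied widely among them and spanned log2 -8.84 for Tyro3 to 7.40 for Havcr2 beside a median of -0.14 over all genes tested.

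**Figure D1:**
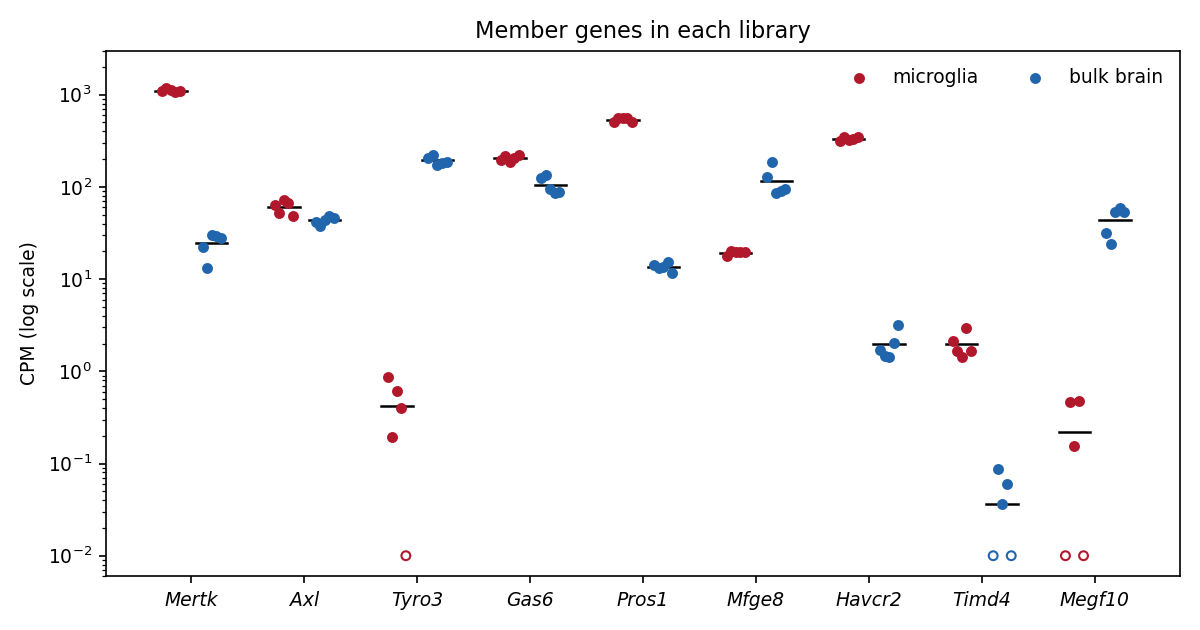
CPM (log scale) of each member gene in the 5 microglia libraries (red, left) and the 5 bulk brain libraries (blue, right), with the mean as a bar and open circles at the bottom for libraries with 0 counts. Mertk, Pros1 and Havcr2 stood at 315 CPM or more in all microglia libraries and at 29.8 CPM or less in all bulk brain libraries, whereas Tyro3 and Megf10 lay below 1 CPM in microglia.

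Of the 6 receptor genes among the members, Mertk had the highest level in microglia. Mertk (ENSMUSG00000014361, chromosome 2, 128540876 to 128644814, plus strand, GRCm39) encodes the receptor kinase that macrophages use to clear apoptotic cells. It stood at 1089, 1174, 1113, 1079.5 and 1098 CPM in microglia replicates 1 to 5, and at 22.2, 13.3, 29.8, 29.3 and 27.6 CPM in bulk brain replicates 1 to 5. The microglia libraries lay close together, with a coefficient of variation of 3.38%, and all were far above bulk brain, where replicate 2 was lowest. The mean was 1111 ± 37.5 CPM in the sorted microglia, against 24.4 ± 6.91 CPM in bulk tissue (SD, n = 5 each), 45.4-fold higher in microglia (log2 difference 5.51 ± 0.22 SE, edgeR adjusted p = 7.1e-10). Of all genes tested, 704 had a larger rise. Within the span of Mertk the table lists a small nucleolar RNA with 1163 counts over the microglia libraries and the antisense gene Gm14011 with 297, against 140011 counts for Mertk. Reads of these overlapping genes may be mixed.

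Tyro3 had few counts in the sorted cells. Tyro3 (ENSMUSG00000027298, chromosome 2, 119628214 to 119648585, plus strand) encodes the TAM receptor that is known from neurons and from myelination. It stood at 0.874, 0.194, 0.617, 0.398 and 0 CPM in microglia, a total of 53 counts, and at 204, 224, 173, 181 and 188 CPM in bulk brain, a total of 32870 counts. The mean was 0.417 ± 0.344 CPM in microglia, 465-fold lower than the 194 ± 20.2 CPM of bulk brain. The log2 difference was -8.84 ± 0.47 (SE), with an adjusted p of 5.9e-09 by edgeR. Its level in microglia was 0.215% of that in bulk brain, within the ranges of the 10 neuron markers (0.0394% to 0.397%), the 10 astrocyte markers (0.169% to 25.7%) and the 10 oligodendrocyte markers (0.122% to 13.4%). Bulk brain replicates 1 and 2 held somewhat more Tyro3 than replicates 3 to 5, with 214 CPM against 181 CPM as means.

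Axl differed least of the members' receptor genes, and the call depended on the scaling. Axl (ENSMUSG00000002602, chromosome 7, 25456698 to 25488130, minus strand) encodes the TAM receptor that binds Gas6 but not protein S and that macrophages raise under inflammation. It stood at 63.7, 51.9, 71.7, 67.4 and 48.8 CPM in microglia and at 41.6, 37.7, 44.0, 47.9 and 45.8 CPM in bulk brain. The lowest microglia library, replicate 5, lay just above the highest bulk brain library, replicate 4. The mean was 60.7 ± 9.93 CPM in the sorted microglia, against 43.4 ± 3.95 CPM in bulk tissue, 1.40-fold higher in microglia (log2 difference 0.48 ± 0.13 SE, edgeR adjusted p = 0.0038). The call was lost with median-of-ratios size factors (log2 difference 0.32, adjusted p = 0.053), without bulk brain replicate 1 (0.35, adjusted p = 0.061) and with bulk brain replicates 3 to 5 alone (0.25, adjusted p = 0.074). Over all alternatives that test for any difference, the adjusted p ranged between 8.5e-04 and 0.074. On the scale of level per length the groups overlapped, with 36.1 to 52.4 TPM in microglia and 26.5 to 43.2 TPM in bulk brain.

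The sequences just before the transcription start of Mertk, Tyro3 and Havcr2 are shown because Mertk led the TAM receptors in microglia, and Tyro3 and Havcr2 were the extremes of the members' differences. Each is the 250 bases before the start in RefSeq (GRCm38.p6, another build than that of the counts), 5′ to 3′ on the gene's strand, at chr2:128698665-128698914 (plus) for Mertk, chr2:119799264-119799513 (plus) for Tyro3 and chr11:46454681-46454930 (plus) for Havcr2. Capitals mark the GC box GGGCGG and the purine-rich ETS core GAGGAA on either strand, which do not overlap each other here.
Mertk: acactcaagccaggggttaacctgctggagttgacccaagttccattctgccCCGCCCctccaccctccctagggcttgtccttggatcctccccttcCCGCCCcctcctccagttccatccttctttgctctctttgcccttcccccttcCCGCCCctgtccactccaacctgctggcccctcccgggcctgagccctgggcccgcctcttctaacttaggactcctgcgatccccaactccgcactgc
Tyro3: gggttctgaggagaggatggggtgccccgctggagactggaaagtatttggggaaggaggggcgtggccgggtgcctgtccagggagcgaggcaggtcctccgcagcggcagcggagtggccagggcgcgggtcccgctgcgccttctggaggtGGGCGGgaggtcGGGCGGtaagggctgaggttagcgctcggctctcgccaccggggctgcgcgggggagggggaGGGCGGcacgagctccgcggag
Havcr2: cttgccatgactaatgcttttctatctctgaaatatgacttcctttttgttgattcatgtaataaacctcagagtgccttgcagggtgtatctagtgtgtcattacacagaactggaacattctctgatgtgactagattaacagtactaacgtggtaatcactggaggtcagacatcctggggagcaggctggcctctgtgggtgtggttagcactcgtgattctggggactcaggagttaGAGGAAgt
Mertk and Tyro3 each held 3 GC boxes and no GAGGAA, whereas Havcr2 held no GC box and 1 GAGGAA, which lies at the end of the window next to the start. Of the 8 members whose promoters were read, 6 held a GC box (Mertk, Axl, Tyro3, Gas6, Pros1 and Mfge8) and 3 the ETS core (Axl, Mfge8 and Havcr2). Among all 32851 promoters of the table, 32.7% held the GC box and 23.3% the ETS core, so each motif is common. GC content was 63.6% for Mertk, 73.2% for Tyro3 and 44.8% for Havcr2, beside a median of 52.4% over all promoters.

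Among the ligand genes, Pros1 showed the largest difference. Pros1 (ENSMUSG00000022912, chromosome 16, 62674670 to 62749709, plus strand) encodes protein S, a ligand of Mertk and Tyro3 that also acts as an anticoagulant cofactor in plasma. It stood at 499.9, 555, 562, 554 and 510.5 CPM in microglia and at 14.1, 13.3, 13.7, 15.2 and 11.8 CPM in bulk brain. Both groups were tight, and bulk brain replicates 1 and 2 did not stand apart here. The mean was 536 ± 28.9 CPM in the sorted microglia, against 13.6 ± 1.25 CPM in bulk tissue, 39.4-fold higher in microglia (log2 difference 5.30 ± 0.11 SE, edgeR adjusted p = 6.3e-12).

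Gas6 was higher in microglia by a smaller factor. Gas6 (ENSMUSG00000031451, chromosome 8, 13515374 to 13544490, minus strand) encodes the ligand shared by the TAM receptors. It stood at 196, 218, 186, 207 and 219.6 CPM in microglia and at 124, 135, 95.2, 85.8 and 89.2 CPM in bulk brain, where replicates 1 and 2 were the highest. The mean was 205 ± 14.4 CPM in the sorted microglia, against 106 ± 22.2 CPM in bulk tissue, 1.94-fold higher in microglia (log2 difference 0.95 ± 0.14 SE, edgeR adjusted p = 4.6e-05). That call remained over all alternatives that test for any difference. The estimate lies below 2-fold, so the test against a 2-fold change (adjusted p = 0.52) could not be passed. The gene Tmem255b, on the opposite strand, overlaps Gas6 with 28 counts in microglia and 189 in bulk brain.

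Mfge8 went the other way. Mfge8 (ENSMUSG00000030605, chromosome 7, 78783516 to 78798808, minus strand) encodes a secreted protein that bridges phosphatidylserine to alpha-v integrins. It stood at 17.7, 20.1, 19.7, 19.5 and 19.6 CPM in microglia and at 128, 187, 85.7, 90.6 and 93.8 CPM in bulk brain, with replicates 1 and 2 again highest. The mean was 19.3 ± 0.928 CPM in the sorted microglia, against 117 ± 42.4 CPM in bulk tissue, 6.05-fold lower in microglia (log2 difference -2.60 ± 0.21 SE, edgeR adjusted p = 2.9e-07). Its level in microglia was 16.5% of bulk brain. That lay within the range of the 10 astrocyte markers (0.169% to 25.7%), though above their median of 0.414%. It also lay within the range of the 8 endothelial markers (12.02% to 228%) and close to their median of 16.2%. That range is wide because of Pecam1, and the next highest endothelial marker, Cdh5, stood at 33.8%. The Mfge8 level lay within the range of the 6 mural cell markers too (2.68% to 20.8%), above their median of 6.52%. Of the astrocyte markers the glutamate transporter gene Slc1a3 kept 25.7% and the next highest, Aldh1l1, 2.21%. Whether the microglia counts of Mfge8 come from microglia was not tested.

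**Figure D2:**
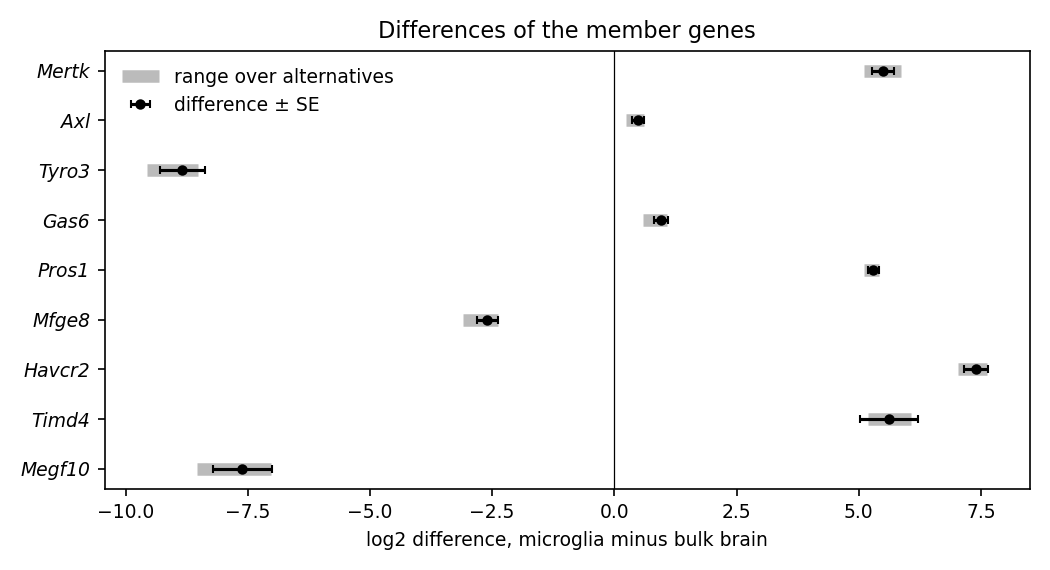
Log2 difference of each member, microglia minus bulk brain, with its SE (black) and the range over 22 alternative settings (grey bar). The bars for Axl (0.25 to 0.60) and Gas6 (0.58 to 1.07) lay nearest to 0, and none of the 9 reached the other side.

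The remaining receptor genes bind phosphatidylserine without a bridging ligand or belong to other engulfment routes. Havcr2 (ENSMUSG00000020399, chromosome 11, 46345762 to 46372082, plus strand) encodes TIM-3, known as an inhibitory receptor of T cells and also present on myeloid cells. It stood at 315, 349, 319, 334 and 347 CPM in microglia and at 1.70, 1.47, 1.42, 2.02 and 3.17 CPM in bulk brain, where replicate 5 was highest. The mean was 333 ± 15.5 CPM in microglia, 170.2-fold higher than the 1.95 ± 0.717 CPM of bulk brain. The log2 difference was 7.40 ± 0.24 (SE), with an adjusted p of 1.0e-10 by edgeR, and 173 genes had a larger rise. Of 7 T and NK cell markers, the T cell receptor gene Trbc2 was at 0 counts in microglia and at 4.98 CPM in bulk brain. The CD3 gene Cd3e stood at 0.134 CPM in the sorted microglia, against 0.138 CPM in bulk tissue, and Cd3d at 0.0463 and 0.0404 CPM. Cd8a had 4 and 15 counts and Nkg7 1 and 9 counts, whereas Ncr1 had 11 counts in microglia and 0 in bulk brain. The 7 markers summed to 2.90 to 4.74 CPM in microglia and 7.79 to 15.8 CPM in bulk brain. Most of that sum was Cd4 (3.25 CPM in microglia, 4.43 CPM in bulk brain) and, in bulk brain, Trbc2. The sum is therefore no measure of T and NK cells.

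Timd4 was the least abundant of the genes that were higher in microglia. Timd4 (ENSMUSG00000055546, chromosome 11, 46701627 to 46735159, plus strand) encodes TIM-4, a phosphatidylserine receptor typical of long-lived tissue macrophages. It had 53, 43, 37, 74 and 40 counts in microglia (2.11, 1.67, 1.43, 2.94 and 1.67 CPM) and 0, 3, 1, 2 and 0 counts in bulk brain, or 247 counts against 6 (95% exact Poisson intervals 217 to 279.8 and 2.202 to 13.1, counting error only). The difference was log2 5.62 ± 0.59 (SE, edgeR adjusted p = 2.9e-06). Replicate 4 was the highest microglia library both for Timd4 and for the summed border-associated macrophage markers, with 578 CPM in replicate 4 and 445 to 454 CPM in the others. It was also the highest for the monocyte markers (35.3 CPM, against 24.1 to 28.7 CPM in the others). The same held for the dendritic cell markers (38.7 CPM, against 29.2 to 36.0 CPM) and the T and NK cell markers (4.74 CPM, against 2.90 to 4.19 CPM). In replicate 4, Cd209a made 24.4 CPM of the dendritic cell sum and Cd4 made 4.06 CPM of the T and NK sum. The dendritic cell list was mixed: Cd209a and Clec9a were higher in microglia, whereas Flt3 and Zbtb46 were lower. Its sum in bulk brain was 29.8 to 45.7 CPM. Neither sum is therefore a measure of its cell type. Replicate 4 was not the highest for the neutrophil markers (8.55 CPM, against 4.81 to 13.3 CPM in the others). Mrc1, the most abundant of the border-associated macrophage markers, stood at 348 CPM in replicate 4 and at 256 to 276 CPM in the others. In that list Siglec1 and Pf4 were highest in replicate 3 and Cd209f and Folr2 in replicate 2, and the remaining markers in replicate 4. The part of any of these cell types in the Timd4 counts was not tested.

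Megf10, an engulfment receptor gene known from astrocytes, had few counts in the sorted cells. Megf10 (ENSMUSG00000024593, chromosome 18, 57266162 to 57430539, plus strand) stood at 0, 0.465, 0.154, 0.477 and 0 CPM in microglia, 28 counts in all, and at 31.8, 23.8, 53.4, 58.4 and 53.8 CPM in bulk brain. The mean was 0.219 ± 0.239 CPM in microglia, 202-fold lower than the 44.3 ± 15.4 CPM of bulk brain, and the log2 difference was -7.62 ± 0.60 (SE), with an adjusted p of 2.2e-07 by edgeR. Its residue of 0.496% lay within the range of the 10 astrocyte markers (0.169% to 25.7%, median 0.414%). It also lay within that of the 10 oligodendrocyte markers (0.122% to 13.4%, median 0.492%) and above all 10 neuron markers (at most 0.397%). The source of the Megf10 counts in microglia was not tested.

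Levels of different genes were compared per length, as counts per kilobase scaled to the same total in each library (TPM). In microglia, Mertk was first with 940.0 ± 14.1 TPM, followed by Pros1 with 482 ± 22.0 TPM and Havcr2 with 449 ± 18.4 TPM, whose ranges overlapped. Gas6 followed at 296 ± 19.6 TPM, Axl at 44.3 ± 7.55 TPM, Mfge8 at 15.1 ± 0.613 TPM and Timd4 at 3.32 ± 1.04 TPM, each without overlap with its neighbours. Tyro3 and Megf10 came last, at 0.248 ± 0.207 and 0.103 ± 0.112 TPM, and were not separated from each other. Mertk lay above 99.4% of the genes tested in microglia and above 61.9% of them in bulk brain.

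In bulk brain, Gas6 led with 172 ± 19.4 TPM, followed by Tyro3 with 131 ± 3.06 TPM and Mfge8 with 102 ± 24.0 TPM, whose ranges overlapped. Axl, at 36.6 ± 6.73 TPM, overlapped with Megf10 at 24.9 ± 10.4 TPM, which overlapped with Mertk at 24.3 ± 8.64 TPM. Pros1 stood at 14.1 ± 2.08 TPM and overlapped with Mertk, whereas Havcr2, at 3.06 ± 1.28 TPM, and Timd4, at 0.0683 ± 0.0667 TPM, stood apart below. Without the division by length, Tyro3 came first in bulk brain, then Mfge8 and then Gas6, while the order in microglia was the same.

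The make-up of the receptor and ligand sets followed from these levels. Mertk made up 95.5% ± 0.787 of the summed TAM receptor level in microglia, against 12.4% ± 3.72 in bulk brain (n = 5 libraries each, SD). Tyro3 made up 0.0252% ± 0.0210 in microglia and 68.6% ± 5.66 in bulk brain, and Axl 4.50% ± 0.771 in microglia and 19.0% ± 1.99 in bulk brain. The summed receptor level was 985 ± 11.3 TPM in microglia and 192 ± 16.7 TPM in bulk brain. Among the ligands, Pros1 made up 60.8% ± 2.19 in microglia and 4.99% ± 1.21 in bulk brain, Gas6 37.3% ± 2.196 in microglia and 59.96% ± 3.05 in bulk brain, and Mfge8 1.91% ± 0.0390 in microglia and 35.1% ± 3.86 in bulk brain. None of these shares overlapped between the groups. Within a library, the ratio of Pros1 to Gas6 was 1.45 to 1.88 in microglia, against 0.0617 to 0.110 in bulk brain. These are descriptions of composition, with no test.

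**Figure D3:**
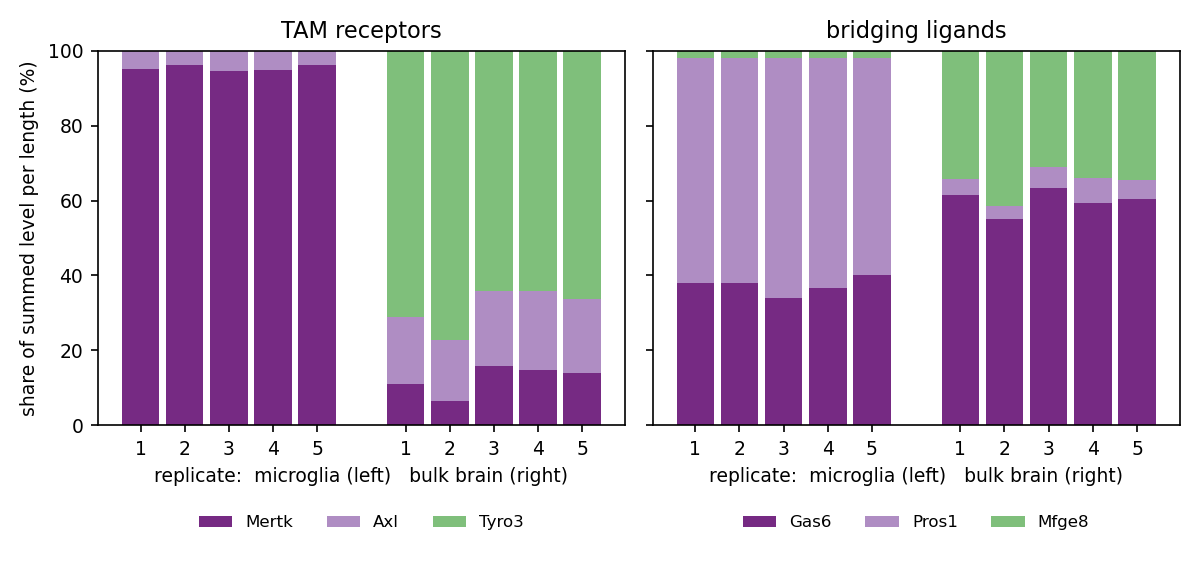
Share of each gene in the summed level per length (percent) of the TAM receptors (left panel) and of the bridging ligands (right panel), 1 bar per library, with microglia at the left of each panel and bulk brain at the right. Mertk filled 94.7% to 96.3% of the receptor level in microglia, and Tyro3 64.1% to 77.4% in bulk brain.

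Since bulk brain contains microglia, its levels can be read against those of microglia markers. In bulk brain, 9 of the 10 microglia markers stood at 0.533% to 0.932% of their level in microglia, and the transcription factor gene Sall1 stood at 2.26%. Havcr2, at 0.588% ± 0.216, lay within that range. Mertk, at 2.201% ± 0.622, lay above 9 of the 10 markers, and Pros1, at 2.54% ± 0.233, above all 10. Gas6 reached 51.6% ± 10.8 and Axl 71.5% ± 6.51. In bulk tissue, fewer cells of a type and less RNA per cell cannot be told apart.

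The bulk brain libraries differed in these genes by replicate. Replicates 1 and 2 lay below the mean of replicates 3 to 5 by log2 0.38 and 1.12 for Mertk and by 0.79 and 1.21 for Megf10. They lay above it by 0.47 and 0.58 for Gas6 and by 0.51 and 1.05 for Mfge8. Over the same libraries the median microglia marker stood at 0.00 and 0.22, the median astrocyte marker at -0.03 and -0.23, and the median oligodendrocyte marker at 0.43 and 0.52. These medians hide shifts of single markers in both directions. In replicates 1 and 2 Aqp4 stood at 124 and 86.5 CPM and Gfap at 286 and 320 CPM. Replicates 3 to 5 held 220 to 232 CPM of Aqp4 and 207 to 215 CPM of Gfap. Of the oligodendrocyte markers, Ugt8a was lower in replicates 1 and 2 (84.5 and 58.1 CPM, against 107 to 112 CPM). Mog was higher there (99.5 and 111 CPM, against 57.9 to 70.6 CPM). Mertk was lowest in replicate 2, the library in which the median microglia marker was highest, though Sall1 was lowest there (25.5 CPM). With bulk brain replicates 3 to 5 alone, 8 of the 9 members kept the same call and direction, Axl being the exception.

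**Figure D4:**
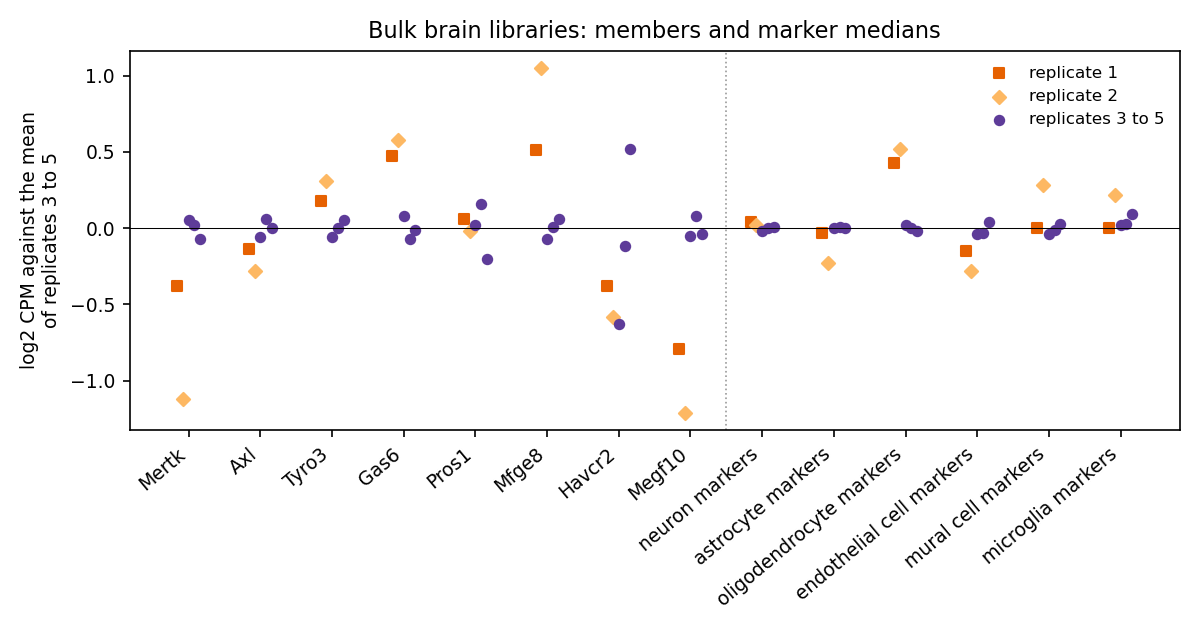
Log2 CPM of each bulk brain library against the mean of replicates 3 to 5, for 8 members (Timd4 left out because of its few counts) and for the medians of marker lists. Replicates 1 (square) and 2 (diamond) fell below the others for Mertk and Megf10 and rose above them for Gas6 and Mfge8.

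Among 15029 coding genes, a profile very like that of Mertk over the 10 libraries was that of the phosphodiesterase gene Pde3b, with a root mean square difference of 0.084 in centred log2 CPM. Pde3b stood at 805 CPM in the sorted microglia, against 17.7 CPM in bulk tissue. The genes most like Axl were the adaptor complex gene Ap3d1 (0.12) and Isoc1 (0.12), and those most like Tyro3 were Bmerb1 (0.25) and the ephrin receptor gene Epha5 (0.30). The measure is dominated by the difference between the groups, and it describes likeness in these libraries only.

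Other genes of the pathway were counted in lists by role. The counts of each list stand beside 37.2% higher, 43.9% lower and 81.0% called in either direction over all genes tested. No list was tested as a set. Of 14 other receptor genes for phosphatidylserine or apoptotic cells, 13 were tested, of which 10 were higher, 2 lower and 1, Scarf1, not past the threshold (median log2 difference 2.11, against -0.14 for all genes). Trem2, a lipid-sensing receptor gene, stood at 1234 ± 52.1 CPM in the sorted microglia, against 10.9 ± 5.90 CPM in bulk tissue, where replicates 3 to 5 alone averaged 7.01 CPM. The scavenger receptor gene Stab1 stood at 1623 ± 42.3 CPM in the sorted microglia, against 16.1 ± 1.23 CPM in bulk tissue, and Cd300a at 136 ± 3.82 CPM and 2.43 ± 0.367 CPM. Adgrb1, which encodes the receptor BAI1, was lower, at 0.265 ± 0.152 CPM in the sorted microglia, against 350 ± 19.996 CPM in bulk tissue, as was Stab2. The TIM family gene Havcr1 had 0 counts in all libraries.

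Of 12 genes of Mfge8 integrins and other bridging proteins, 11 were tested, of which 8 were higher and 3 lower (median 2.66). The integrin genes Itgav (log2 difference 1.48), Itgb3 (5.46) and Itgb5 (5.21), whose products bind Mfge8, were all higher while Mfge8 itself was lower. Itgb5 stood at 2349 CPM in the sorted microglia, against 63.3 CPM in bulk tissue. The complement genes C1qa, C1qb and C1qc were higher by log2 6.38, 6.28 and 6.45. Edil3, which encodes a relative of Mfge8, stood at 0.338 ± 0.450 CPM in the sorted microglia, against 190 ± 38.6 CPM in bulk tissue, and the tubby gene Tub at 0.213 ± 0.207 CPM and 182 ± 48.0 CPM. Anxa5, whose product binds phosphatidylserine, was lower by a smaller amount (-0.88 ± 0.16 SE, edgeR adjusted p = 3.1e-04).

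Of 17 genes of engulfment adaptors and effectors, 11 were higher, 5 lower and 1, Trio, not past the threshold (median 0.74). Vav1 stood at 540.0 ± 24.0 CPM in the sorted microglia, against 2.99 ± 0.873 CPM in bulk tissue, Dock2 at 433 ± 10.5 CPM and 3.82 ± 1.01 CPM, and Rac2 at 97.4 ± 3.57 CPM and 1.75 ± 0.367 CPM. Rac1, the widely expressed paralog of Rac2, was higher by log2 0.74. Bcar1, an adhesion adaptor gene, was at 0.318 ± 0.174 CPM in the sorted microglia, against 69.3 ± 11.1 CPM in bulk tissue. The focal adhesion kinase gene Ptk2 was at 8.58 ± 1.29 CPM in the sorted microglia, against 113 ± 5.50 CPM in bulk tissue. Gulp1, an adaptor gene of the Megf10 route, was lower too (log2 difference -4.53 ± 0.76 SE, edgeR adjusted p = 1.6e-04). Its 37 counts in microglia lay mostly in replicate 2 (1.16 CPM, against 0 to 0.125 CPM in the others). Leaving out single libraries gave log2 differences of -6.51 to -4.19.

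Of 15 genes of scramblases and flippases, which move phosphatidylserine between the membrane leaflets, 14 were tested, with 6 higher, 4 lower and 4 that did not pass (median -0.17, the same with genes at 0 counts set to their bounds). The scramblase gene Ano6 was higher (89.2 ± 5.87 CPM in microglia, 22.6 ± 6.58 CPM in bulk brain), as was the flippase gene Atp8a2 (log2 difference 1.58). Xkr4 had 0 counts in microglia and 37.7 ± 31.2 CPM in bulk brain, which makes it at least 1582-fold lower when 3 counts over the group are taken as the floor. Bulk brain replicates 1 and 2 held 5.20 and 2.40 CPM of Xkr4 and replicates 3 to 5 held 54.9 to 66.0 CPM. The bound was 2530.1-fold with replicates 3 to 5 alone and 159.6-fold with replicates 1 and 2 alone. Xk and Tmem30a, which encodes the shared flippase subunit, were lower by log2 1.40 and 0.71 (-1.40 ± 0.24 and -0.71 ± 0.09 SE). With bulk brain replicates 3 to 5 alone, and without replicate 2 alone, 7 genes were lower in place of 4.

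Of 7 genes for ligand maturation and receptor shedding, 5 were higher and 2 lower (median 1.37). The gamma-carboxylase gene Ggcx, whose product modifies Gas6 and protein S, was higher by log2 1.37. Adam17, whose product sheds Mertk, stood at 430.3 ± 16.8 CPM in the sorted microglia, against 22.2 ± 2.49 CPM in bulk tissue, and Adam10 at 464 ± 19.7 CPM and 91.5 ± 20.4 CPM. The protease gene Furin was also higher (log2 difference 1.68). Timp3, an inhibitor of ADAM proteases, was lower (2.48 ± 1.02 CPM in microglia, 56.1 ± 31.3 CPM in bulk brain, and 78.1 ± 1.66 CPM in bulk brain replicates 3 to 5 alone), as was Vkorc1l1, which recycles vitamin K (log2 difference -0.88).

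Of 14 genes of TAM signalling and transcriptional control, 13 were tested, of which 11 were higher and 2 lower (median 1.49). Socs3, a feedback inhibitor gene of cytokine signalling, stood at 308 ± 40.02 CPM in the sorted microglia, against 2.28 ± 0.236 CPM in bulk tissue, and Socs1 at 6.22 ± 2.13 CPM and 0.916 ± 0.255 CPM. The interferon receptor chain genes Ifnar2 and Ifnar1 were higher by log2 3.73 and 1.93. The lower genes were Nr1h3 (-1.73) and Twist1 (-5.86). Immediate early genes, which cell isolation is known to raise, were higher as well: all 6 examined, summing to 12144 to 15038 CPM in microglia and 219 to 304 CPM in bulk brain. Their part in the levels of Socs3 and Socs1 was not tested. Of 5 partners of Havcr2, the galectin gene Lgals9 (186 ± 7.79 CPM in microglia, 5.37 ± 0.931 CPM in bulk brain) and Ceacam1 (66.1 ± 5.93 CPM and 2.83 ± 0.843 CPM) were higher. Fyn was lower (20.7 ± 2.37 CPM and 115 ± 3.68 CPM), and Hmgb1 and Bag6 did not pass the threshold, with log2 differences of 0.21 and 0.05.

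**Figure D5:**
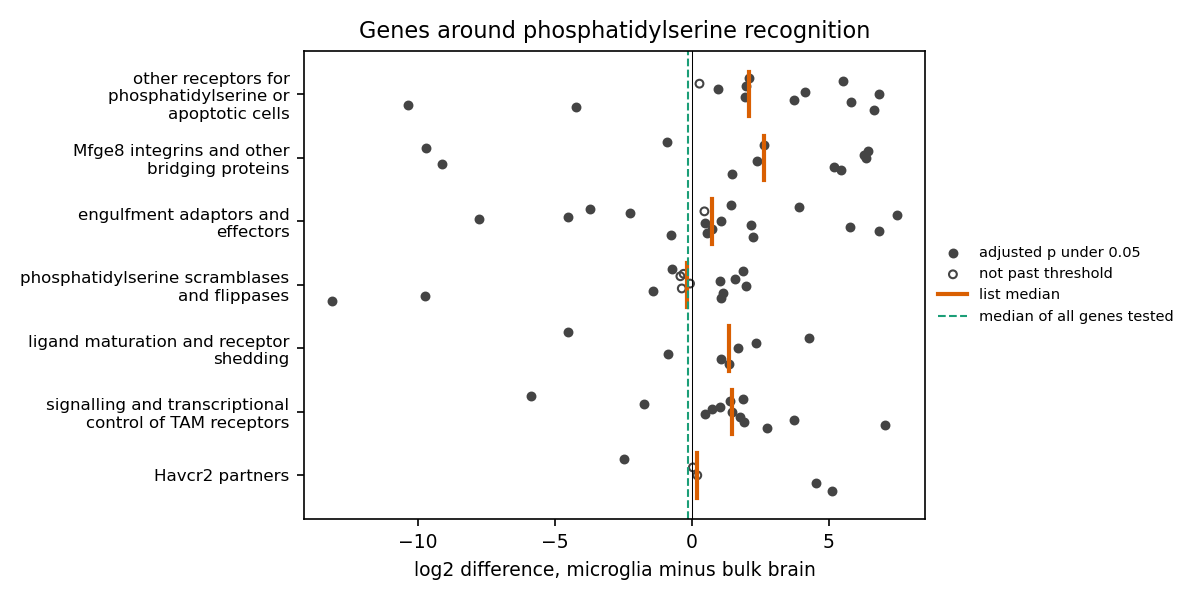
Log2 difference, microglia minus bulk brain, of the tested genes of 7 lists around phosphatidylserine recognition, with filled points past an adjusted p of 0.05, open points not past it, the list median (orange) and the median of all genes tested (green dashed line, -0.14). Xkr4 and Xkr7 had 0 counts in microglia, so their points are fitted values and no bounds.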

How the data were processed

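RNA-seq was measured in 10 mouse libraries, 5 of sorted CD11b-positive cells and 5 of hemi brains, from poly-A RNA selected on poly-T beads, per the labels' protocols. Per the submitters' processing notes, CASAVA, HISAT2 2.2.1 and featureCounts 2.0 with the build GRCm39 (mm39) were used. How strand was treated, and which annotation release was used, is not given in the sources used here. Raw counts were deposited by the authors per gene, with no normalization, together with symbols, coordinates and gene lengths in bases. From these, 18969 genes kept by filterByExpr were TMM-scaled and then tested with edgeR 4.0.16 (quasi-likelihood, group as the only term, R 4.3.3, Benjamini-Hochberg, threshold 0.05). CPM use TMM-scaled totals, TPM the deposited gene length, and the SE is the log2 difference divided by the square root of F.

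The members, lists, tests and alternatives were chosen with earlier results of these data known. Besides the members, up to 3 genes per list and direction with the largest differences were named where either group's mean reached 5 CPM, and the 2 coding genes whose log2(CPM + 0.5) profile was nearest to each TAM receptor. Other list genes were named after their values were seen, and the immediate early genes were added then. Same-numbered libraries of the 2 groups did not deviate together (correlations of -0.05 to 0.02), and the labels state no pairing. No pair of replicates agreed within counting noise (smallest chi-square over its degrees of freedom 5.45). Alternatives were run with DESeq2 1.42.0 and limma 3.58.1, other scalings and filters, and without single libraries. Python 3.11.15 was used for levels and plots. Megf10 was not read for a promoter. Some genes that these rules name are not reported here.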

Additional observations from a re-analysis of the deposited data

Results flagged for a closer look

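In microglia, the Mfge8 level of replicate 1, at 17.7 CPM, lay apart from the other 4 libraries, which stood at 19.5 to 20.1 CPM. Of 18 groups of 5 libraries examined (9 genes in 2 groups), this was the 1 with a library apart, and chance gives about 1 in 20.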

How the results depend on the processing

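Of 198 differences (9 genes under 22 alternatives each), 192 kept their direction and their side of the threshold, 0 reversed, and 6 fell short of the threshold, all for Axl or Gas6. Their estimates lie below 2-fold, so the test against a 2-fold change could not be passed by either; the cause of the other 4 was not tested. For Axl these were median-of-ratios size factors (log2 difference 0.32), no low-count filter (0.31), bulk brain replicates 3 to 5 alone (0.25), the test against a 2-fold change (0.48) and leaving out bulk brain replicate 1; leaving out single libraries gave 0.30 to 0.57. For Gas6 it was the test against a 2-fold change (0.95). Scaling gave a median of all genes of -0.14 in the main analysis, -0.31 when size factors were medians of ratios and -0.33 by library size alone. The replicate number as a block moved no member's call (log2 difference 0.47 for Axl), and the counts were 6858 higher and 8037 lower, against 7048 and 8320 without it. Tested against a 2-fold change, 4450 genes were higher, and the lists gave 7 engulfment genes higher in place of 11, 3 scramblase or flippase genes higher in place of 6, and 1 maturation or shedding gene lower in place of 2. Lower scramblase or flippase genes numbered 7 with bulk brain replicates 3 to 5 alone and 4 to 7 without single libraries. With at least 1 CPM in 5 libraries, which tests fewer genes, 1 other receptor gene and 1 signalling gene were lower, in place of 2 each, and with bulk brain replicates 1 and 2 alone 2 partners of Havcr2 were lower in place of 1. On the CPM scale, which lacks the division by length, ligand shares in microglia were 27.0% for Gas6, 70.5% for Pros1 and 2.54% for Mfge8, and in bulk brain 45.3% for Gas6 and 48.7% for Mfge8, with 16.6% for Axl among the receptors. With no low-count filter, 12197 genes were lower. Depth limits Tyro3, Megf10 and Timd4, whose counts in the lower group were 53, 28 and 6.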
